A study of Drosophila melanogaster with 4 samples.

Results

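The nuclear genes for mitochondrial ribosomal proteins were followed in wing imaginal discs of wandering L3 larvae of Drosophila. These discs are folded epithelia set aside in the larva, from which the wing and dorsal thorax of the fly develop. Genes were taken by name: every deposited row whose symbol begins with mRpL or mRpS and a digit, with a mean of at least 0.1 FPKM (fragments per unit of transcript length and library size) over the libraries. The rule gave 71 genes of 13990 in all, 45 named mRpL for the large subunit and 26 named mRpS for the small subunit. Subunits were read from this letter alone, and the place of each protein in the ribosome was not checked. The rule uses no difference between genotypes. All 71 also passed the mean of 1 FPKM required of every gene compared below, which leaves 7920 genes as the background.

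The study has 4 genotypes, with 1 pooled library of each. Every genotype, the control included, carried en>GFP, in which the engrailed driver acts in cells of the posterior compartment. The Yki+Tai library also expressed the Hippo-pathway coactivator Yorkie (Yki) together with the ecdysone receptor coactivator Taiman (Tai), the Yki+Tai-IR library Yki with Tai-IR, the usual notation for an inverted-repeat RNAi construct, here against tai, and the Yki library Yki alone. The GFP library carried no further transgene. Larvae were raised at 25 °C, and whole discs were dissected and pooled. The protocol given with every library states 80 to 100 discs per genotype but names only GFP and GFP with Tai, so it was taken to hold for all 4. Each library thus mixes posterior cells with anterior cells in which the driver is not active. In such bulk RNA, fewer cells of a kind and less RNA per cell cannot be told apart. No genotype has a replicate. No difference below therefore has a replicate check or a p-value, and the values describe these libraries.

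The mitochondrial ribosome translates the few proteins encoded by mitochondrial DNA, all of which are core subunits of the respiratory chain and ATP synthase. Its RNAs come from the mitochondrial genome, while its proteins are encoded in the nucleus, made by cytosolic ribosomes and imported. Some of these proteins descend from those of the bacterial ribosome, and others were added during the evolution of mitochondria.

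The spacing of low FPKM values gave an estimated depth of 12.5 M fragments in Yki+Tai, 8.30 M in Yki+Tai-IR and 9.55 M in Yki, against 8.05 M in GFP. Transcript of yki stood at 4535 FPKM in Yki+Tai, 2563 in Yki+Tai-IR and 5034 in Yki, against 71.5 in GFP. Transcript of tai stood at 1260.3 FPKM in Yki+Tai, 22.9 in Yki+Tai-IR and 25.0 in Yki, against 27.1 in GFP. The tai level of Yki+Tai-IR was close to that of Yki, so whole-disc RNA gives little check of the construct. The 8 wing disc markers were all detected in every library, with summed levels of 453 to 516 FPKM. These sums hide opposite differences of single markers, so they do not show a like composition of the discs. In Yki+Tai 2 of the 8 were higher and 6 lower than in Yki. The gene en had 63.2 FPKM in Yki+Tai, 23.9 in Yki+Tai-IR and 32.6 in Yki, against 43.2 in GFP. The gene ap had 68.02, 102.4 and 118.5 FPKM in the same libraries, against 99.3 in GFP. For ptc the levels were 19.9, 32.3 and 21.5 FPKM, against 53.98 in GFP. Summed marker levels of other tissues differed more between libraries. The summed level of 4 leg disc genes was 31.4 FPKM in Yki+Tai, 109.6 in Yki+Tai-IR and 0.714 in Yki, against 138.9 in GFP. That of 6 hemocyte genes was 30.2, 5.33 and 4.58 FPKM in the same libraries, against 8.43 in GFP. That of 5 myoblast genes was 18.4, 47.6 and 31.1 FPKM, against 78.3 in GFP. The part of such tissue differences in the values of the mitochondrial ribosomal genes was not tested.

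Mitochondrial ribosomal protein transcripts formed a narrow band of moderate levels. Of the 71 genes, 53 had a mean between 30 and 70 FPKM, and the means ran from 20.04 FPKM for mRpS6 to 239 for mRpL34. The highest level of a gene over the libraries was 1.31 times its lowest at the median, under 1.5 times in 61 genes, and 2 times or more in 3 genes. With 1 FPKM added to each value, the median ratio was 1.31 for these genes and 1.36 for all genes compared. On that scale 2 of the 71 genes reached a ratio of 2, against 15.6% of all genes.

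The most abundant member, mRpL34, which encodes a very small protein of the large subunit related to bacterial L34, had 216 FPKM in Yki+Tai, 258 in Yki+Tai-IR and 230 in Yki, against 251 in GFP. The stalk protein gene mRpL12, whose product belongs to the protuberance where translation factors bind, had 101 FPKM in Yki+Tai, 116 in Yki+Tai-IR and 117 in Yki, against 107 in GFP. The least abundant, mRpS6, had 20.2 FPKM in Yki+Tai, 21.6 in Yki+Tai-IR and 22.4 in Yki, against 15.97 in GFP. The gene mRpL34 was the highest member in every library. The gene mRpS6 was the lowest in all libraries but Yki+Tai, where mRpL35 and mRpL54 were lower.

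Together the 71 genes summed to 3656 FPKM in Yki+Tai, 4373 in Yki+Tai-IR and 4324 in Yki, against 4060 in GFP. Their share of all FPKM was 0.464% in Yki+Tai, 0.536% in Yki+Tai-IR and 0.558% in Yki, against 0.503% in GFP. The Yki+Tai library held the lowest level of 44 members, against 8 in Yki+Tai-IR, 2 in Yki and 17 in GFP. Of all genes compared, these libraries held the lowest level of 31.5%, 23.5%, 21.1% and 23.9%, so the GFP count is at its background. The Yki+Tai library held the highest level of 8 members, Yki+Tai-IR that of 28, Yki that of 27 and GFP that of 8. Over all genes these libraries held the highest level of 29.1%, 24.1%, 21.1% and 25.6%.

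**Figure D1:**
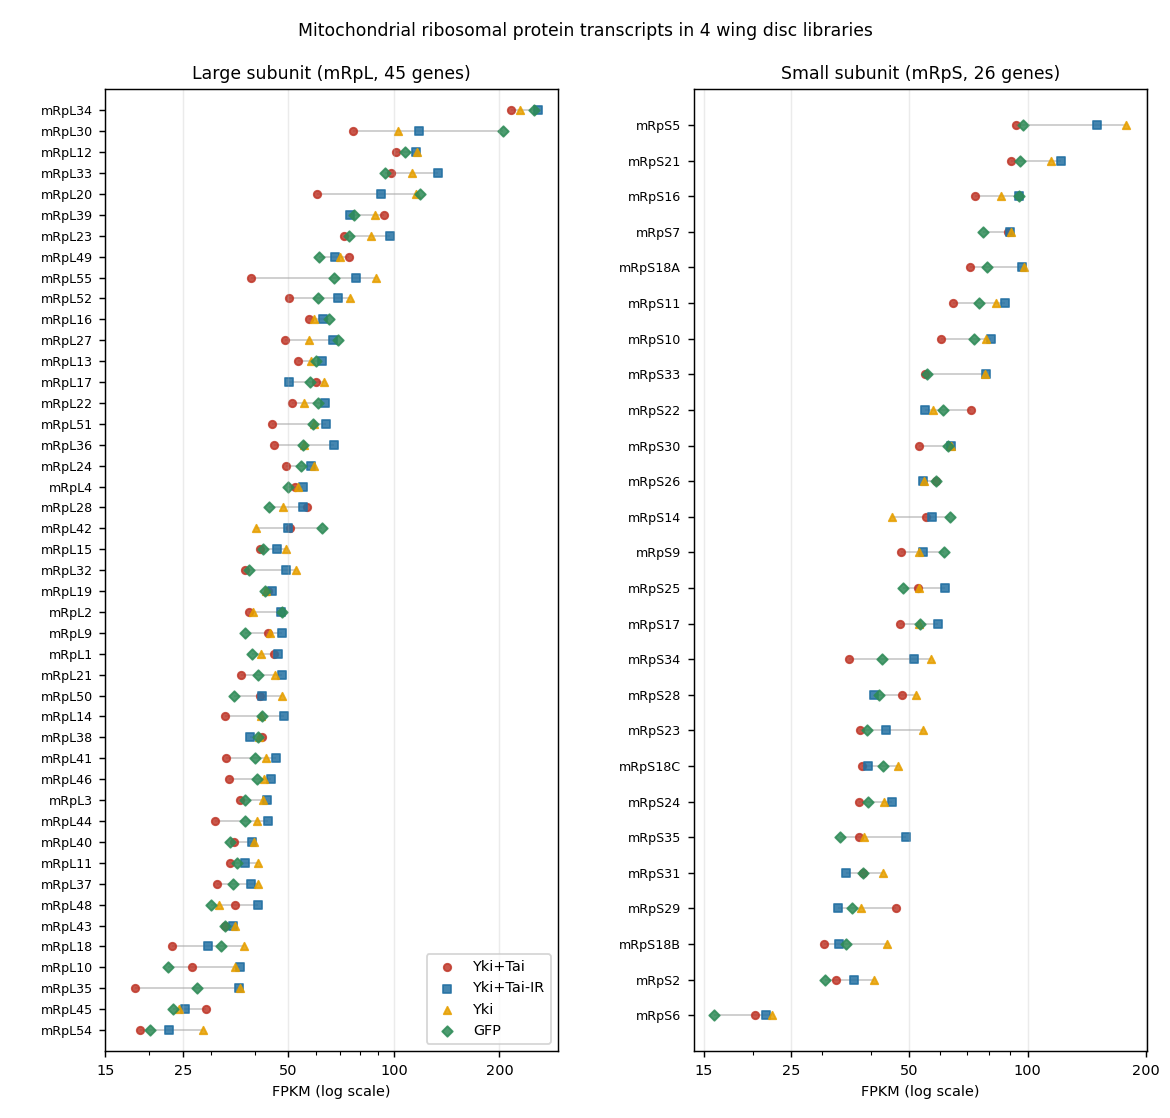
FPKM (log axis) of all 71 mitochondrial ribosomal protein genes in the 4 libraries, each panel ordered by mean level. Genes named mRpL (large subunit by name) are on the left and genes named mRpS (small subunit by name) on the right. Circles stand for Yki+Tai, squares for Yki+Tai-IR, triangles for Yki and diamonds for GFP, with 1 library each and no error bar. The Yki+Tai circle is the leftmost point for 44 genes, and mRpL30, mRpL55, mRpL35, mRpL20 and mRpS5 have the widest spreads.

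The comparison of Yki with GFP asks how the group stands when Yorkie alone is expressed. Levels were slightly higher in Yki. Differences are given throughout on the log2(FPKM + 1) scale. The median difference was 0.13 (95% binomial interval over genes 0.09 to 0.20), against -0.006 for all genes. That interval is for the median and takes members as independent draws, though they are not replicates. The members' quartiles were 0.01 and 0.24. In Yki 55 members were higher and 16 lower than in GFP, whereas 48.9% of all genes were higher. A difference of 0.32 or more in size, which is 25% more in the higher library, was taken as a step worth counting. By this step 13 members (18.3%) were higher, against 17.1% of all genes, and 3 (4.23%) were lower, against 15.9%. No member differed 2-fold, a difference seen in 5.74% of all genes. The share of members past the step was near the background upward and under it downward, so the excess lies in many small differences.

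The gene with the highest difference was mRpS5, whose product is related to bacterial S5 at the mRNA entry of the small subunit. It had 178 FPKM in Yki, against 97.2 in GFP, a ratio of 1.83 (1.70 to 1.98). Intervals beside a ratio here and below are exact Clopper-Pearson intervals at 95% on estimated fragments and cover counting error only. The stalk base gene mRpL10, which carries the L12 copies on the ribosome, followed with 35.1 FPKM in Yki, against 22.7 in GFP, a ratio of 1.55 (1.24 to 1.93). The mitochondria-specific genes mRpS33, mRpL54 and mRpS23 came next, at 1.41 (1.12 to 1.77), 1.42 (1.06 to 1.91) and 1.39 (1.13 to 1.71) times their GFP level. Each of these 5 genes was also lower in Yki+Tai than in Yki, a comparison that shares the Yki library, so the same Yki value enters both.

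The 3 members lower in Yki were mRpL30, mRpL42 and mRpS14. The large-subunit gene mRpL30, related to bacterial L30, had 76.6 FPKM in Yki+Tai, 118 in Yki+Tai-IR and 103 in Yki, against 204 in GFP. The GFP library stands alone for this gene, and the ratio of Yki to GFP was 0.50 (0.449 to 0.565). The mitochondria-specific gene mRpL42 had 50.4 FPKM in Yki+Tai, 49.7 in Yki+Tai-IR and 40.4 in Yki, against 62.4 in GFP. It was lowest in Yki, at 0.647 (0.518 to 0.805) of GFP. The gene mRpS14 had 55.2 FPKM in Yki+Tai, 57.03 in Yki+Tai-IR and 45.3 in Yki, against 63.6 in GFP, the same order of highest and lowest. Exons of other genes cover 35.8% of the mRpS14 exons, mostly on the opposite strand, and the libraries hold no strand information, so reads from these genes cannot be told apart there. Next lowest were mRpL27, with 57.1 FPKM in Yki against 69.3 in GFP, and mRpL2, a gene for a protein at the heart of the large subunit, with 39.6 against 47.9.

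Yki+Tai set against Yki addresses the addition of Taiman to Yorkie. Here the group was lower as a whole. The median difference was -0.21 (binomial interval over genes -0.29 to -0.14), against -0.002 for all genes, and the summed level was 0.846 times that of Yki. In Yki+Tai 58 members were lower than in Yki and 13 higher, whereas 50.2% of all genes were lower. By the 0.32 step 24 members (33.8%) were lower, against 19.3% of all genes, and 0 were higher, against 19.4%. Only mRpL55 passed 2-fold, against 6.35% of all genes. The share of members past the step was above the background downward and below it upward. It was no longer above when the median of protein-coding genes of like transcript length was subtracted from each gene. The group median was then -0.09, with 13 members (18.3%) lower past the step and 3 higher. Of all 7536 protein-coding genes so treated, whatever their length, 18.35% were lower and 19.11% higher.

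**Figure D2:**
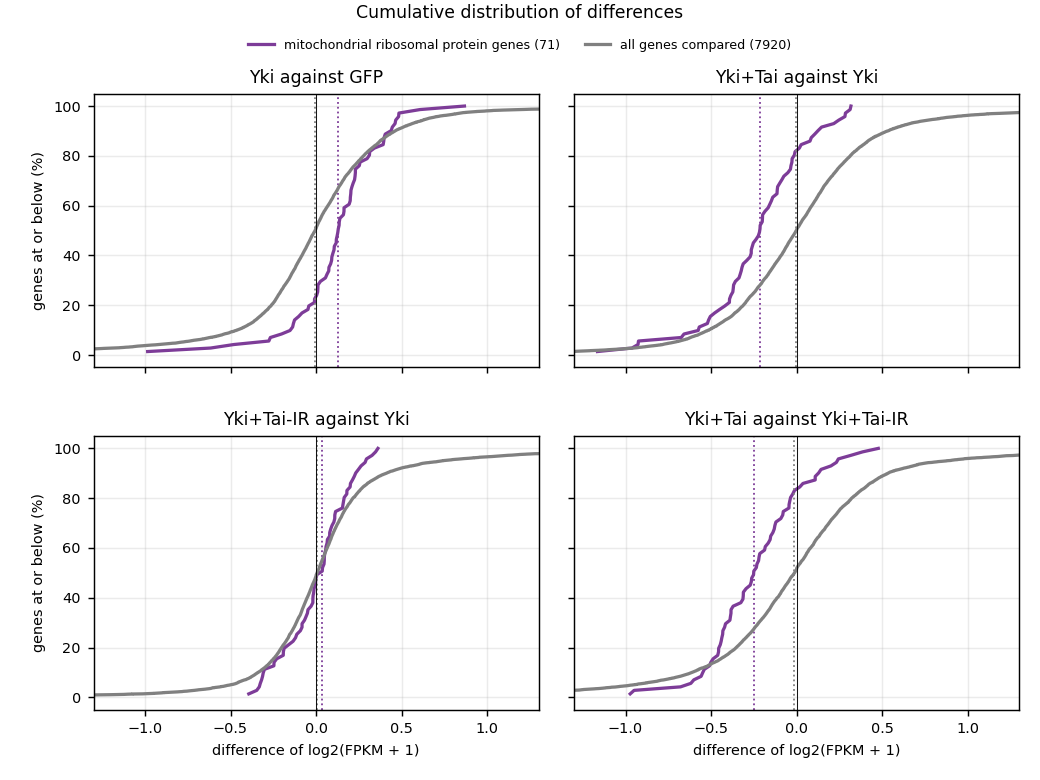
Cumulative share of genes (%) against the difference of log2(FPKM + 1) for the 71 mitochondrial ribosomal protein genes and all 7920 genes compared, in a panel per comparison. Dotted lines mark the medians. The members' curve lies to the left of all genes in both panels with Yki+Tai, at medians of -0.21 and -0.25, to the right in Yki against GFP, at 0.13, and near all genes in Yki+Tai-IR against Yki, at 0.04.

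The lowest ratio belonged to mRpL55, a mitochondria-specific large-subunit gene required for fly development, with 39.1 FPKM in Yki+Tai, 77.7 in Yki+Tai-IR and 88.9 in Yki, against 67.3 in GFP. Its ratio of Yki+Tai to Yki was 0.44 (0.347 to 0.551), and the other libraries all lie well above Yki+Tai. The gene mRpL35, related to bacterial L35, had 18.2 FPKM in Yki+Tai, 36.1 in Yki+Tai-IR and 36.4 in Yki, against 27.5 in GFP, with a ratio of Yki+Tai to Yki of 0.50 (0.394 to 0.63). The gene mRpL20, whose bacterial relative acts early in large-subunit assembly, had 60.2 FPKM in Yki+Tai, 91.8 in Yki+Tai-IR and 115.3 in Yki, against 118.8 in GFP. Its ratio was 0.522 (0.448 to 0.606), and unlike mRpL55 and mRpL35 it was as high in GFP as in Yki.

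Among genes named mRpS, mRpS5 had 93.3 FPKM in Yki+Tai, 150.01 in Yki+Tai-IR and 178 in Yki, against 97.2 in GFP. Its Yki+Tai level was 0.524 (0.489 to 0.561) of Yki and lay beside the GFP level. The mitochondria-specific gene mRpS34 had 35.1 FPKM in Yki+Tai, 51.5 in Yki+Tai-IR and 56.7 in Yki, against 42.6 in GFP, and its ratio of Yki+Tai to Yki was 0.62 (0.515 to 0.742). Further down the order stood mRpS33 at 0.701 (0.574 to 0.857), mRpS18A at 0.729 (0.626 to 0.851), and mRpL10 at 0.754 (0.628 to 0.912). The gene mRpL44, whose product has a ribonuclease III-like fold, stood at 0.76 (0.653 to 0.882), with 30.8 FPKM in Yki+Tai against 40.6 in Yki. In all of these the Yki+Tai level was below the Yki and Yki+Tai-IR levels.

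At the other end, 5 members had the highest ratios of Yki+Tai to Yki, none of them past the 0.32 step. The mitochondria-specific gene mRpS22 had 71.7 FPKM in Yki+Tai, 54.7 in Yki+Tai-IR and 57.4 in Yki, against 60.8 in GFP, and the interval of its ratio of Yki+Tai to Yki ran from 1.13 to 1.38. The gene mRpS29, whose mammalian counterpart DAP3 is a GTP-binding protein of the small subunit, had 46.2 FPKM in Yki+Tai, 32.9 in Yki+Tai-IR and 37.8 in Yki, against 35.8 in GFP, a ratio of 1.22 (1.09 to 1.38). For these genes Yki+Tai was the highest library. The gene mRpL45, whose mammalian counterpart lies at the inner membrane face of the ribosome, also had its highest level there, 29.2 FPKM against 24.4 in Yki. The remaining pair, mRpL42 and mRpS14, were the members lowest in Yki, and their Yki+Tai levels were under their GFP levels.

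**Figure D3:**
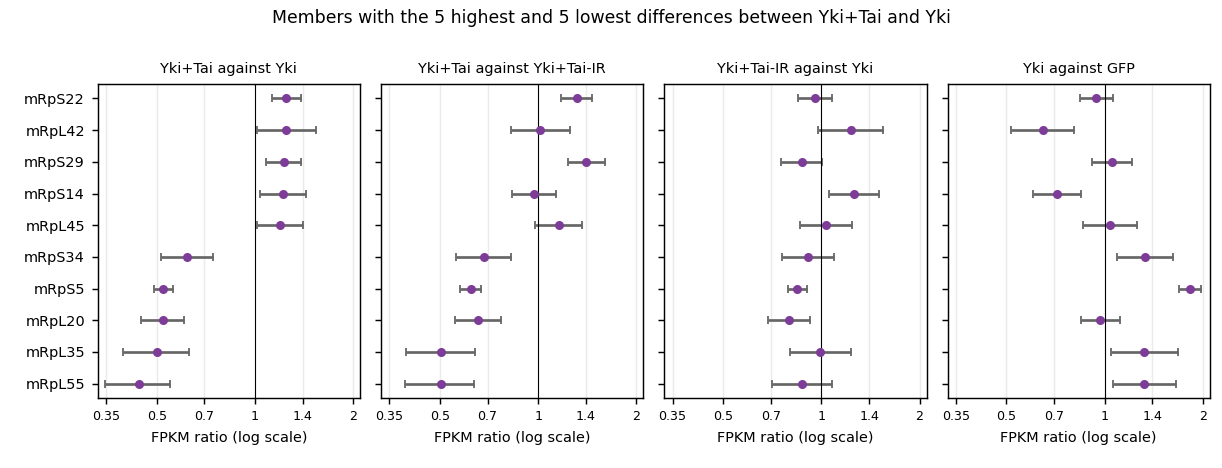
FPKM ratio (log axis) of the 10 members with the 5 highest and 5 lowest differences between Yki+Tai and Yki, shown in all 4 comparisons. Points are ratios of single libraries and bars are exact 95% intervals that cover counting error only. The lower 5 genes, mRpS34 to mRpL55, lie between 0.44 and 0.62 in Yki+Tai against Yki and also under 1 against Yki+Tai-IR, while mRpL42 and mRpS14 lie near 1 against Yki+Tai-IR.

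The lower level in Yki+Tai was of like size in the mRpL and mRpS genes, the subunits as named. The median difference against Yki was -0.21 in the mRpL genes, where 36 of 45 were lower. In the mRpS genes it was -0.22, where 22 of 26 were lower. Members with a bacterial counterpart had a median of -0.22 and mitochondria-specific members one of -0.19. The spread differed more than the middle: 40 of 44 members with a bacterial counterpart were lower in Yki+Tai, against 18 of 27 mitochondria-specific members. Transcript length also moved with this comparison, as given below, and its part in this contrast was not tested. Of the 5 highest members, mRpS22, mRpL42, mRpS29 and mRpL45 are mitochondria-specific, and mRpS14 has a bacterial counterpart. The genes mRpS18A, mRpS18B and mRpS18C all encode relatives of bacterial S18. The gene mRpS18B had 30.4 FPKM in Yki+Tai against 43.9 in Yki, a ratio of 0.693 (0.582 to 0.826). The gene mRpS18A had 71.5 FPKM against 98.04, and mRpS18C had 37.98 against 46.7, a ratio of 0.813 (0.641 to 1.03). These paralogs were all lower in Yki+Tai, and their intervals overlap.

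Members named by role also differed among themselves. The gene mRpL4, whose bacterial relative lines the exit tunnel, had 52.1 FPKM in Yki+Tai against 53.1 in Yki. The gene mRpL16, near the peptidyl transferase centre in bacteria, had 57.2 against 59.3. These levels were close, while mRpL24, an early assembly protein in bacteria, had 49.04 FPKM in Yki+Tai against 59.1 in Yki. The longest member, mRpS30, had 53.1 FPKM in Yki+Tai, 64.0 in Yki+Tai-IR and 64.0 in Yki, against 62.9 in GFP. For mRpS30 the Yki+Tai library alone stands apart, at 0.829 (0.764 to 0.899) of Yki.

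The comparison of Yki+Tai-IR with Yki asks how the group stands with the construct against tai. The libraries also differ in yki, at 2563 FPKM in Yki+Tai-IR and 5034 in Yki, and the part of this was not tested. The sign of the group's median depended on the scale. The median difference was 0.04, against 0.006 for all genes, with 37 members higher and 34 lower, and the summed level was 1.01 times that of Yki. By the 0.32 step 3 members (4.23%) were higher, against 13.0% of all genes, and 4 (5.63%) were lower, against 10.8%. No member differed 2-fold, against 4.85% of all genes. Both shares of members lie below the background. With the median of genes of like length subtracted, the group median was -0.057, with 22 members higher and 49 lower. Past the step 9 were lower, against 10.01% of all protein-coding genes so treated. Rescaled to the same FPKM sum, the group median was -0.036, with 26 higher and 45 lower, and all genes then had a median of -0.062.

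The 3 higher members were mRpL48, with 41.1 FPKM in Yki+Tai-IR and 31.7 in Yki, mRpS35, with 49.04 and 38.3, and mRpS14, with 57.03 and 45.3. Among these mRpL48 and mRpS35 were also higher than in GFP, and mRpS14 was not. Below these stood mRpL36, related to bacterial L36, with 67.5 FPKM against 55.2, and mRpL42, with 49.7 against 40.4. The 4 lower members were mRpS18B at 0.756 (0.623 to 0.916), mRpS28 at 0.782 (0.639 to 0.962), mRpL18 at 0.789 (0.623 to 0.988) and mRpL20 at 0.796 (0.685 to 0.925) of Yki. Next came mRpL17, with 50.3 FPKM in Yki+Tai-IR and 63.0 in Yki. The upper ends of several of these intervals lie near 1, so at this depth differences of this size are little above counting error.

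The last comparison, Yki+Tai against Yki+Tai-IR, contrasts added Taiman with the construct against it. The group was lower in Yki+Tai by a median of -0.25 (binomial interval over genes -0.33 to -0.16), against -0.01 for all genes, and the summed level was 0.836 times that of Yki+Tai-IR. In Yki+Tai 59 members were lower and 12 higher, whereas 51.6% of all genes were lower. By the 0.32 step 27 members (38.03%) were lower, against 22.1% of all genes, and 2 (2.82%) were higher, against 19.9%. No member differed 2-fold on the scale with 1 added, against 8.71% of all genes. With the median of genes of like length subtracted, the group median was -0.05, with 7 members lower past the step. That share was under the 19.51% of all protein-coding genes so treated. This comparison shares the Yki+Tai library with the one against Yki, so it is no separate evidence about that library.

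The lowest ratios again included mRpL55 at 0.503 (0.391 to 0.638), mRpL35 at 0.504 (0.395 to 0.64), mRpS5 at 0.622 (0.578 to 0.669), mRpL30 at 0.648 (0.569 to 0.737) and mRpL20 at 0.656 (0.555 to 0.771). The 2 members past the 0.32 step upward were mRpS29 at 1.404 (1.23 to 1.60) and mRpS22 at 1.31 (1.18 to 1.46). Below them mRpL39 stood at 93.6 FPKM in Yki+Tai, with 75.04 for Yki+Tai-IR and an interval of the ratio from 1.13 to 1.38. Both mRpS29 and mRpS22, like mRpL39, have transcripts longer than most members.

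Transcript length moved with these differences. Members have short transcripts, 327 to 2078 nt with a median of 774 nt, and 49 are under 1000 nt. Against Yki, the 49 members under 1000 nt had a median difference of -0.27 in Yki+Tai, with 44 lower, and the 22 members of 1000 nt or more had -0.04, with 14 lower. Other protein-coding genes showed an offset by length in the same direction. Those under 1000 nt, 1083 genes, had a median of -0.11 with 59.5% lower, and the 6382 longer genes had 0.02. In the class from 500 to 750 nt, 28 members had a median of -0.31, with 27 lower, against -0.16 for 409 other genes. In the class from 1000 to 1500 nt, 20 members and 1268 other genes had medians of -0.04 each.

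Cytosolic ribosomal protein genes of like length went the other way. The 52 under 1000 nt had a median difference of 0.22 between Yki+Tai and Yki, with 12 lower, and the 30 longer ones had 0.27, with 4 lower. Subtracting from each member the median of protein-coding genes in its length class left the group median of -0.09 given above for Yki+Tai against Yki, with 47 of 71 members lower and 24 higher, while the excess past the step was gone. For Yki+Tai against Yki+Tai-IR the same subtraction left -0.05, with 38 lower and 33 higher. By the 0.32 step 7 were lower and 5 higher, against 19.51% and 19.79% of all protein-coding genes so treated. With this subtraction the lower group level was smaller against either library. No excess of members past the step remained over protein-coding genes of all lengths.

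The small excess in Yki over GFP moved less with length. Members under 1000 nt had a median of 0.14, against 0.04 for other protein-coding genes of that length and -0.11 for cytosolic ribosomal protein genes. Members of 1000 nt or more had 0.10, with 18 of 22 higher, against -0.01 for the other genes. Between Yki+Tai-IR and Yki, members under 1000 nt had a median of 0.005, below the 0.10 of other genes of that length.

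**Figure D4:**
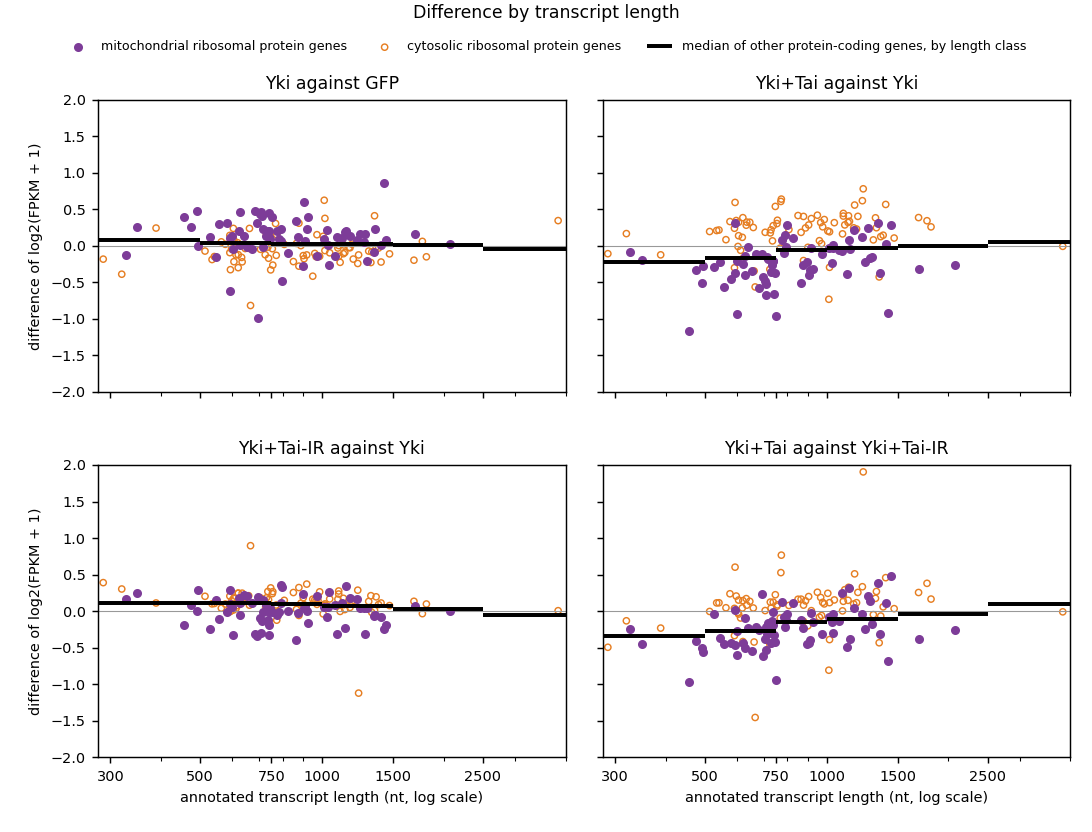
Difference of log2(FPKM + 1) against annotated transcript length (nt, log axis) in the 4 comparisons. Filled points are mitochondrial ribosomal protein genes, open points cytosolic ribosomal protein genes, and black steps the median of other protein-coding genes in 6 length classes. In Yki+Tai against Yki the steps climb from -0.21 under 500 nt to 0.05 at 2500 nt or more, members of 500 to 750 nt lie mostly below them, and open points of that length lie mostly above.

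With a transcript of 1422 nt, mRpS5 is among the 22 members of 1000 nt or more. Of these, 14 were lower in Yki+Tai than in Yki and 8 higher. Past the 0.32 step 3 were lower, against 19.3% of all genes. These were mRpS5, mRpL37 and mRpL44, and mRpS5 had the lowest ratio. The gene mRpS5 lies at chr3L:24537236-24543534 of dm6, on the plus strand, with 3 annotated transcripts and no exon shared with another gene. This is the pericentromeric end of the arm, and the other genes there were examined after the value of mRpS5 was seen. The 23 other compared genes on 3L from 23 Mb onward had a median difference of 0.78 in Yki against GFP, with 22 higher, and mRpS5 had 0.87. In Yki+Tai against Yki they had a median of -0.84, with 22 lower, and mRpS5 had -0.92. The 1504 genes of 3L before 23 Mb had medians of 0.005 and -0.02 in these comparisons, which share the Yki library. The mRpS5 values thus lie within those of its neighbours, and no other member is in this stretch.

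**Figure D5:**
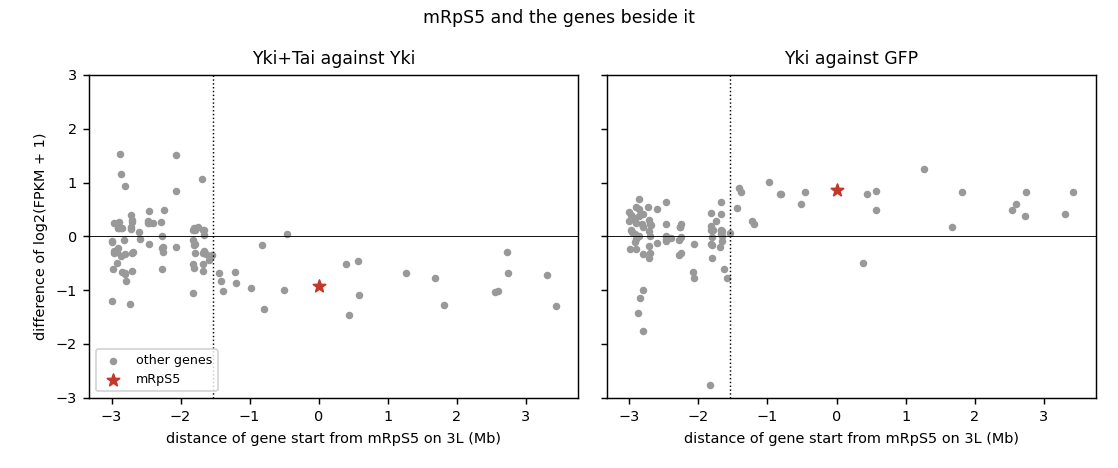
Difference of log2(FPKM + 1) of mRpS5 (star) and other compared genes (points) on 3L against the distance of the gene start from mRpS5 (Mb). The dotted line marks 23 Mb. To its right 22 of 23 other genes lie below 0 in Yki+Tai against Yki and 22 of 23 above 0 in Yki against GFP, as does mRpS5, while points to its left scatter about 0.

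Some mitochondrial ribosomal protein genes carry other names and are outside the 71. The gene tko, for the S12 protein of the decoding centre, had 45.5 FPKM in Yki+Tai, 83.0 in Yki+Tai-IR and 78.9 in Yki, against 79.3 in GFP. Its ratio of Yki+Tai to Yki was 0.576 (0.525 to 0.632), with a transcript of 1596 nt. The S15 gene bonsai had 50.97 FPKM in Yki+Tai, 70.4 in Yki+Tai-IR and 64.2 in Yki, against 55.6 in GFP, a ratio of Yki+Tai to Yki of 0.794 (0.698 to 0.902). For both of these genes Yki+Tai was the lowest library. The gene listed as Rlc1, now called mRpL47, had 42.2 FPKM in Yki+Tai, 43.7 in Yki+Tai-IR and 42.3 in Yki, against 43.4 in GFP, and was level in all 4 libraries.

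Other genes of the mitochondrial translation pathway were set beside the ribosomal proteins. The 9 translation factors had a median difference of -0.01 in Yki+Tai against Yki. By the 0.32 step 1 of them was higher and 2 lower, against 19.4% and 19.3% of all genes. The elongation factor gene EfTuM, the most abundant of them, had 119.0 FPKM in Yki+Tai, 105.6 in Yki+Tai-IR and 104.3 in Yki, against 119.1 in GFP. The 15 mitochondrial tRNA synthetase genes, which charge tRNAs with amino acids and have long transcripts (median 2552 nt), had a median of 0.14 in Yki against GFP, with 13 higher, and of -0.10 in Yki+Tai against Yki, with 12 lower. By the 0.32 step 3 of the 15 were higher in the first comparison, against 17.1% of all genes, and 2 lower in the other, against 19.3%. Counts this small are not set apart from these shares. These medians have the signs of the ribosomal proteins in both comparisons, which share the Yki library.

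In the respiratory chain and ATP synthase the products of mitochondrial translation are assembled with nuclear-encoded subunits. The 41 nuclear genes of this list had a median of -0.19 in Yki against GFP, with 31 lower. By the 0.32 step 8 were lower, against 15.9% of all genes, and 2 higher, against 17.1%. The median has the opposite sign to the 0.13 of the ribosomal proteins. In Yki+Tai against Yki the respiratory genes had a median of -0.19, with 32 lower. Past the step 16 were lower, against 19.3% of all genes, and 1 higher, against 19.4%. In Yki+Tai-IR against Yki they had 0.13, with 35 higher, 3 of them past the step, against 13.0% of all genes. The cytochrome oxidase subunit 8 gene, listed as CG7181, had 235 FPKM in Yki+Tai, 491 in Yki+Tai-IR and 543 in Yki, against 398 in GFP, and its transcript is 513 nt. The ubiquinol-cytochrome c reductase gene ox had 175 FPKM in Yki+Tai, 397 in Yki+Tai-IR and 352 in Yki, against 306 in GFP.

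Mitochondrial import genes, through whose products ribosomal proteins enter the matrix, had a median of -0.29 in Yki+Tai against Yki. In this list 8 of 11 were lower, 5 of them past the step, against 19.3% of all genes. The translocase gene listed as CG40451 (Tim17b) had 238 FPKM in Yki+Tai, 385 in Yki+Tai-IR and 404 in Yki, against 304 in GFP. The translocase gene CG40042 (Tim23) had 114.9 FPKM in Yki+Tai, 190.4 in Yki+Tai-IR and 175 in Yki, against 171 in GFP. Both were lowest in Yki+Tai. Mitochondrial chaperones and proteases had a median of 0.08 in that comparison, with 7 of 9 higher. The lists differ in transcript length, with medians of 1008 nt for import, 963 nt for the respiratory chain and 2250 nt for chaperones and proteases, and the part of length in these medians was not tested.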

How the data were processed

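Libraries were made, per the labels' protocols, from 4 µg of rRNA-depleted total RNA of 80 to 100 pooled discs with TruSeq RNA version 2, which does not mark strand. The deposited values are FPKM, already divided by transcript length and library size, in 4 columns of 13990 genes. The submitters' processing notes name CASAVA 1.4, TopHat2 2.0.12, Cuffdiff 2.2.1 and dm6. Annotation and options: not given in the sources used here. Because FPKM is relative, a class of RNA with a larger share lowers all other values, and any correction for effective length weighs most on short transcripts.

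The members and lists were chosen with earlier results of these data known. Groups came from the labels. Values were compared as differences of log2(FPKM + 1), which understates low genes, for the 7920 genes whose mean reached 1 FPKM. With 1 library per genotype no test was run, and members were counted past 0.32 and past 2-fold beside all genes. Named members are the 5 genes at either end of each comparison, the 4 highest and 4 lowest means, and a set chosen by role, 35 genes in all. Neighbours of mRpS5 and the genes of chromosome 4 were picked with their values in view.

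Lengths, coordinates and overlaps came from Ensembl release 115 (BDGP6, dm6 coordinates), to which 13469 symbols matched, 2940 by an older symbol, including all 71 members. For depth, a value was sought that turns low FPKM into whole fragments, with 210 nt taken off each transcript. In the 4 libraries 64.4% to 77.8% of 761 to 938 values came within 0.08 of an integer. By chance 16% would do so at a depth fixed beforehand. The shares given are the best over the depths and offsets tried, so their own chance level is higher and was not computed. The members' estimated fragments had medians of 320 in Yki+Tai, 267 in Yki+Tai-IR and 284 in Yki, against 236 in GFP. Depth, differences and intervals were tested on simulated data. Alternatives changed the pseudocount, the filter, the scaling, the length and fragment minimums, and, chosen after seeing the data, length of 1000 nt or more, subtraction of the length-class median and exon overlap. Software versions were matplotlib 3.10.9, pandas 2.3.3, scipy 1.17.1, numpy 2.4.6 and Python 3.11.15.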

Additional observations from a re-analysis of the deposited data

How the results depend on the processing

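The group medians and counts past the 0.32 step, 12 results in all, were recomputed under 11 other settings, giving 132 values, of which 103 kept their size and 29 moved. A median kept its size within its binomial interval over genes, and a count within 1.5 times. A pseudocount of 0.1, a minimum of 500 nt, and rescaling by the median ratio of all genes (0.989 to 1.01) moved none by this measure. Having no FPKM filter, one of 5 or a minimum of 100 fragments kept all 71 members, so the members' values could not change. Those values are counted among the 103 and are no check. Within the measure, the minimum of 500 nt took the median of Yki+Tai-IR against Yki to -0.0005, with 32 higher and 33 lower. A pseudocount of 0.1 took the lower count of that comparison to 6, and rescaling by the median ratio took its higher count to 2. With a pseudocount of 5, 1 member was higher and 1 lower in Yki+Tai-IR against Yki. Rescaled to the same FPKM sum, that comparison had a median of -0.036, with 0 higher and 8 lower, so its sign turned. The settings that follow were chosen after seeing the data. With the 22 members of 1000 nt or more, the median was -0.044 in Yki+Tai against Yki, with 3 lower, and -0.10 in Yki+Tai against Yki+Tai-IR, with 4 lower. There 1 was higher and 0 lower in Yki against GFP, and likewise in Yki+Tai-IR against Yki. With the length-class median subtracted, Yki+Tai against Yki had -0.090, with 3 higher and 13 lower. Yki+Tai-IR against Yki had -0.057, with 0 higher and 9 lower, and Yki+Tai against Yki+Tai-IR had -0.048, with 5 higher and 7 lower. With the 30 members free of exon overlap, counts were smaller, as fewer genes enter. These were 5 higher and 0 lower in Yki against GFP, 12 lower in Yki+Tai against Yki, 1 higher and 2 lower in Yki+Tai-IR against Yki, and 0 higher and 14 lower in Yki+Tai against Yki+Tai-IR. No paired analysis was possible because each genotype has 1 library, and no library could be left out for the same reason. Depth limits single members: at medians of 236 to 320 fragments, a ratio such as that of mRpS29 in Yki against GFP, 1.05 (0.915 to 1.22), is not told apart from 1.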

Other observations

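Genes of chromosome 4, which is largely heterochromatic, lay on the same side as the mRpS5 neighbourhood, although none of them is a mitochondrial ribosomal protein gene. The 60 compared genes had a median difference of 0.39 in Yki against GFP, with 52 higher, and of -0.48 in Yki+Tai against Yki, with 56 lower. They were chosen after the values were seen.

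Growth-related lists beside the mitochondrial ribosome differed from it and from one another. Of 18 ribosome biogenesis genes, which build cytosolic ribosomes in the nucleolus, 15 were lower in Yki+Tai than in Yki, with a median of -0.22. Past the 0.32 step 4 were lower, a share near the 19.3% of all genes, and 2 were higher, against 19.4%. The higher ones were Non1, listed as CG8801, with 1029 FPKM in Yki+Tai against 480 in Yki, and the fibrillarin gene Fib, with 201 against 154. The lower ones included Tif-IA, with 68.7 FPKM in Yki+Tai against 113.1 in Yki, and mod, with 247 against 348. The 8 genes of mitochondrial DNA and RNA machinery had a median of -0.06, with 5 lower. Among 10 fusion and growth regulators, a list that includes the transgene targets yki and tai, the mitofusin gene Marf had 46.6 FPKM in Yki+Tai, 41.2 in Yki+Tai-IR and 42.5 in Yki, against 45.5 in GFP. The Myc gene dm had 72.3 FPKM in Yki+Tai, 36.2 in Yki+Tai-IR and 58.9 in Yki, against 61.3 in GFP. For both genes Yki+Tai was the highest library. The list went both ways in Yki+Tai against Yki, with 6 higher and 4 lower. By the 0.32 step 1 was higher, tai itself, and 2 lower, against 19.4% and 19.3% of all genes. The lower ones were Hcf, with 43.7 FPKM in Yki+Tai against 56.3 in Yki, and srl, listed as Spargel, with 40.1 against 54.1.

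Exons of 41 members overlap exons of another gene, most often a gene on the opposite strand, and in 7 members the overlap exceeds 20%. The largest was mRpS24, with 55.3% shared with TBC1d7, whose deposited levels of 14.5 FPKM in Yki+Tai and 19.9 in Yki are below those of mRpS24, 37.2 and 43.3. The gene mRpL18 shares 41 nt with ox, the more abundant partner at 175 FPKM in Yki+Tai and 352 in Yki. Fragments in such stretches cannot be told apart without strand.

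Summed levels of the remaining tissue markers were also uneven. The 7 muscle genes summed to 18.1 FPKM in Yki+Tai, 50.6 in Yki+Tai-IR and 16.4 in Yki, against 33.4 in GFP. The 5 fat body genes summed to 8.96, 16.6 and 12.6 FPKM in the same libraries, against 18.7 in GFP. The 2 tracheal genes summed to 40.004, 27.7 and 30.1 FPKM, against 24.8 in GFP. Most of the tracheal sum was trh, and the genes went opposite ways. The level of btl was 1.27, 2.80 and 2.15 FPKM, against 3.47 in GFP, lowest in Yki+Tai, where trh was highest.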
